A study of Danio rerio with 20 samples.

Results

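The mitochondrially encoded genes of the zebrafish retina comprised 37 of the 32520 genes in the deposited count table, and were taken as every gene placed on the mitochondrial chromosome. They were 13 protein-coding genes, 2 ribosomal RNA genes and 22 transfer RNA genes, told apart by their length and position. RNA had been measured in 20 libraries, 5 for each of 4 populations sorted from the embryonic retina at 42 hpf (hours post fertilization). All embryos carried the reporters Tg(ath5:gap-RFP), together with Tg(crx:gap-CFP), and also Tg(ptf1a:gal4,UAS:gap-YFP), in which regulatory regions of those genes drive membrane-bound fluorescent proteins. Photoreceptors were sorted as ath5 and crx reporter positive and ptf1a negative, and retinal ganglion cells as positive for ath5 alone. Amacrine and horizontal cells were sorted together as ath5 and ptf1a positive and crx negative, and progenitors were negative for all reporters. Each library came from 500 cells out of 25 pooled retinas, and its polyadenylated RNA had been amplified by the SmartSeq-2 method. Nothing in the labels says whether same-numbered libraries share a pool of retinas, so p-values measure the spread between these libraries.

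The mitochondrial genome is a small circular chromosome present in many copies per cell. It encodes core subunits of the respiratory chain and ATP synthase, plus the ribosomal and transfer RNAs needed to translate them inside the organelle. Both strands are read into long transcripts, which are cut at the transfer RNAs into separate RNAs. Many of these RNAs, but not all, are then polyadenylated. Most genes lie on one of the strands. Retinal neurons depend strongly on oxidative metabolism, and photoreceptors are known for densely packed mitochondria in their inner segments once mature.

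By the positions in the deposited table (GRCz11), the members span 15646 bases. On the plus strand lie 28 of the 37 genes, including both rRNA genes and 12 of the 13 protein-coding genes. The minus strand holds mt-nd6 and 8 tRNA genes. No introns are involved, and each gene is a single exon. Reads had been counted without regard to strand, and reads that touched several genes had been left out. This matters where genes overlap, as mt-atp8 and mt-atp6 do by 7 bases, mt-nd4l and mt-nd4 by 7, and mt-nd5 and mt-nd6 on opposite strands by 4. Most other members abut or nearly abut their neighbours, so reads across those borders were left out as well. The values of the named pairs, of short genes such as the tRNA genes, and of every minus-strand gene are uncertain to that extent.

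The libraries held 21176600 to 30849559 counts each. The populations showed their own markers in part. Summed photoreceptor markers were 6581 ± 744 CPM (counts per 1000000 of the scaled library total, SD, n = 5) in photoreceptors and 508 ± 83.2 in progenitors, but 9 ganglion cell markers summed to 3619 ± 1136 CPM in amacrine and horizontal cells against 2043 ± 806 in ganglion cells. Progenitor markers were high in all 4 populations, from 8473 ± 1143 CPM in amacrine and horizontal cells to 14872 ± 1111 in photoreceptors. Markers of blood, 4 globin and heme genes, reached 2504, 3710 and 6734 CPM in progenitor replicates 1, 2 and 5 and 2954 in amacrine and horizontal replicate 1, and were at most 3.19 CPM in the other libraries. Markers of periocular mesenchyme stood at 131 ± 24.6 CPM in progenitors and at most 1.34 elsewhere. Markers of retinal pigment epithelium ranged up to 396 CPM, in progenitor replicate 2, and lens markers reached at most 3.36. The part of these cells in the mitochondrial values was not tested.

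Mitochondrial genes took between 3.93% and 15.9% of a library's counts. Photoreceptor replicates 1 to 5 stood at 14.8%, 3.93%, 12.8%, 9.69% and 13.01%. Ganglion cell replicates stood at 9.01%, 10.9%, 10.5%, 12.0% and 12.1%. Amacrine and horizontal replicates stood at 15.9%, 10.3%, 12.5%, 12.1% and 12.4%, and progenitors at 13.6%, 11.1%, 11.6%, 11.3% and 12.3%. The 4 populations overlapped, with group means of 10.8% ± 4.27, 10.9% ± 1.27, 12.6% ± 2.001 and 11.9% ± 1.02 (SD, n = 5 each, in that order). The photoreceptor group held both the lowest library and one of the 2 highest, so its spread was the widest. Without photoreceptor replicate 2 its mean was 12.6%, and without amacrine and horizontal replicate 1 that group's mean was 11.8%. The track numbers in the sample descriptions fall into a first and a second range, whose meaning the labels do not give. In the first and second range the mean share was 9.34% (n = 2) and 11.8% (n = 3) in photoreceptors, 9.94% (n = 2) and 11.5% (n = 3) in ganglion cells, and 12.3% (n = 2) and 11.7% (n = 3) in progenitors. Amacrine and horizontal replicate 1 was alone in the first range, and the other 4 averaged 11.8%. A share of total counts cannot tell less mitochondrial RNA per cell from more nuclear RNA per cell. Nor can it tell fewer mitochondria from less RNA in each. The counting interval of a library's share was narrow, 3.93% to 3.94% (95% Wilson) in the lowest, but covers counting error only, because amplified reads are not independent molecules.

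**Figure D1:**
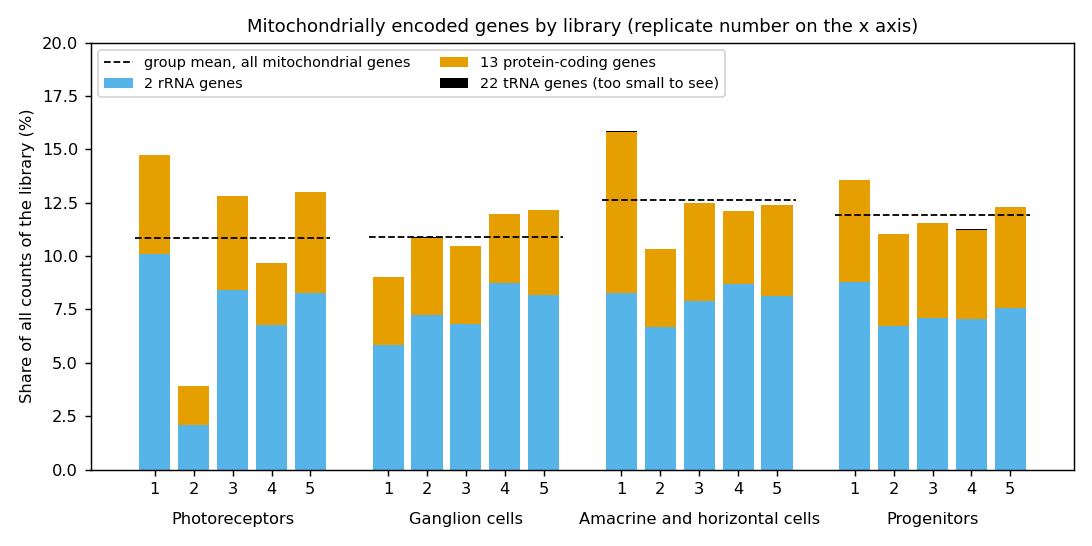
Share of all counts taken by mitochondrial genes in each of the 20 libraries (%, bars from 0), split into rRNA, protein-coding and tRNA genes, with dashed lines at the group means. Photoreceptor replicate 2 stands at 3.93% and the other libraries between 9.01% and 15.9%.

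The 2 ribosomal RNA genes differed most in level. mt-rnr2, which encodes the large (16S) ribosomal RNA of the organelle, was the most abundant gene of the whole table in 19 of 20 libraries and the second in photoreceptor replicate 2. It alone held 52.0% to 73.0% of the mitochondrial counts of a library. mt-rnr1, the small (12S) ribosomal RNA, lies next to it apart from 1 tRNA gene, yet was the lowest of the 15 longer genes per length. Its mean was 119 CPM per kilobase over the 20 libraries against 44892 for mt-rnr2, and the ratio of the pair ran from 130 to 1631, with a median of 515. Both lie on the same strand and both RNAs are part of the same ribosome. Selection for polyadenylated RNA came before these counts, so the ratio is one of captured RNA.

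By library, mt-rnr2 measured 106124, 19609, 81901, 60445 and 79113 CPM in photoreceptor replicates 1 to 5, and 54086, 70596, 64657, 86647 and 78496 in ganglion cells. It measured 121416, 65992, 91065, 85758 and 78074 CPM in amacrine and horizontal cells, and 84104, 63917, 71265, 68214 and 79599 in progenitors. All groups overlapped, with photoreceptor replicate 2 lowest of all 20 libraries. mt-rnr1 measured 104, 24.2, 85.2, 27.6 and 141 CPM in photoreceptors, and 18.8, 68.3, 61.6, 44.5 and 112 in ganglion cells. It measured 229, 222, 330, 56.1 and 105 CPM in amacrine and horizontal cells, and 59.1, 74.2, 119, 44.0 and 347 in progenitors. In all, 3 amacrine and horizontal libraries and 1 progenitor library exceeded 200 CPM, and the groups still overlapped.

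Among the protein-coding genes, those of complex IV (cytochrome c oxidase, which hands electrons to oxygen) were read most. Its 3 mitochondrial subunits took 50.3% to 67.1% of the protein-coding counts of a library. The 7 subunits of complex I (NADH dehydrogenase, the entry point of electrons from NADH) took 11.0% to 20.7%, the single subunit of complex III 10.8% to 25.1%, and the 2 of ATP synthase 4.15% to 10.4%. Per length, mt-co2, which carries the copper centre that accepts electrons from cytochrome c, led with a mean of 18403 CPM per kilobase over 20 libraries. mt-co1, the catalytic subunit of the same enzyme, followed at 5758, mt-cyb (cytochrome b, the complex III subunit) at 5324, mt-co3 at 5086 and mt-atp6 (a channel subunit of ATP synthase) at 4419. The library ranges of these 4 overlap, so their order is not fixed beyond the spread.

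The complex I genes lay lower. mt-nd2 averaged 1578, mt-nd1 1480, mt-nd3 1388, mt-nd5 1000, mt-nd4 813, mt-nd6 761 and mt-nd4l 422 CPM per kilobase. mt-atp8, the short membrane subunit of ATP synthase, averaged 2832. Neighbouring genes were not equal in counted reads per length. mt-atp8 stood at 0.479 to 0.730 of mt-atp6 per length, and mt-nd4l at 0.268 to 0.694 of mt-nd4, in all 20 libraries below 1. Reads across the overlap had been counted for neither gene of a pair. That loss takes a larger part of the reads of the shorter gene, mt-atp8 (165 bases) or mt-nd4l (297 bases). The ratios therefore need not be those of the RNA levels. mt-nd6, the only protein-coding gene of the minus strand, stood at 0.625 to 1.31 of mt-nd5, the gene it faces.

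**Figure D2:**
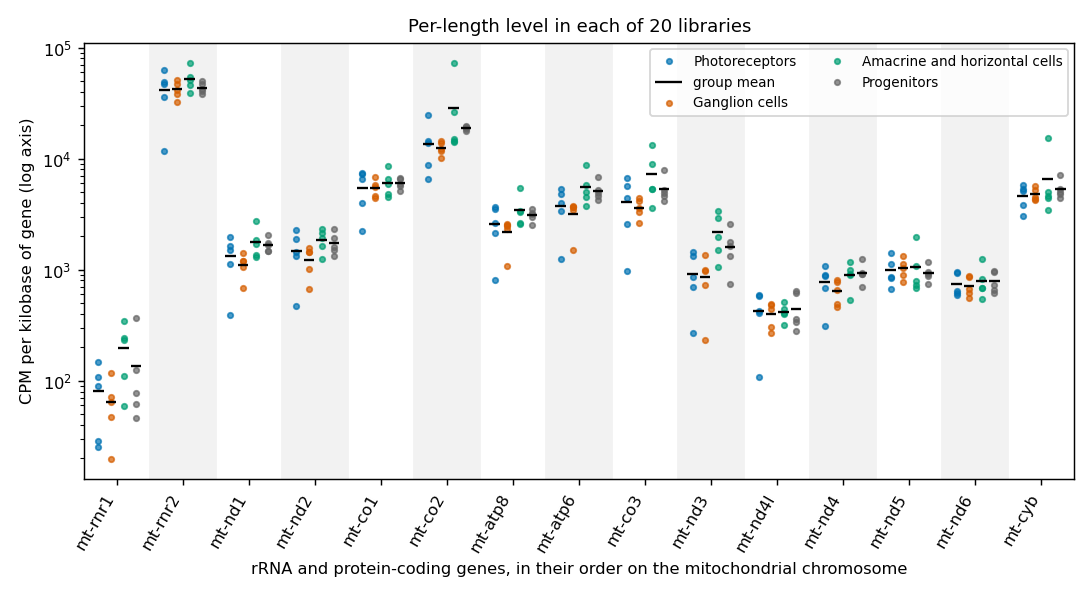
Level of the 2 rRNA and 13 protein-coding genes in each library, in CPM per kilobase of gene on a log axis, with points for the 20 libraries coloured by population and bars at the group means. mt-rnr2 lies highest with a mean of 44892, mt-rnr1 lowest with 119, and the populations overlap at most genes.

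Between populations the means of these 15 genes differed by 1.11 times (mt-nd6 and mt-co1) to 3.09 times (mt-rnr1) from the lowest to the highest. Among protein-coding genes the widest were mt-nd3 with 2.53 times, mt-co2 with 2.30 and mt-co3 with 2.01. Amacrine and horizontal cells had the highest mean in 13 of the 15 genes and ganglion cells the lowest in 12. The first of these counts rested on a single library. Without amacrine and horizontal replicate 1, that population was highest for 4 of the 15 and lowest for 4, and progenitors were highest for 10. Ganglion cells were lowest for 10 of 15 in both that case and the case without the 3 libraries described further on.

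mt-co2 showed this in full. It measured 16990, 4520, 9910, 6093 and 9644 CPM in photoreceptor replicates 1 to 5, and 7033, 9472, 8495, 10040 and 8054 in ganglion cells. It measured 50777, 9954, 18173, 10303 and 9724 CPM in amacrine and horizontal cells, and 13223, 12166, 13611, 12872 and 13279 in progenitors. Progenitors were closely grouped, with every library above all 5 ganglion cell libraries, while 3 of the 5 amacrine and horizontal libraries lay below every progenitor library. The amacrine and horizontal mean was 19786 CPM with all 5 libraries and 12039 without replicate 1.

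mt-nd3, a small subunit of complex I, measured 507, 94.3, 301, 246 and 465 CPM in photoreceptors and 82.1, 477, 255, 342 and 348 in ganglion cells. It measured 1037, 689, 1188, 368 and 526 CPM in amacrine and horizontal cells, and 260, 574, 618, 463 and 903 in progenitors. The 2 highest libraries were amacrine and horizontal replicates 3 and 1 and the next was progenitor replicate 5, and all pairs of groups overlapped.

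The question put to these genes was whether the sorted populations, which the study set side by side, differ in mitochondrial RNA. Of the 37 members, 33 had enough counts to be tested, and the other 4 were tRNA genes (trnL2, trnG, trnT and trnW). None of the 33 passed an adjusted p of 0.05 in any of the 6 comparisons (edgeR quasi-likelihood test with Benjamini-Hochberg adjustment over all 13838 genes tested), and DESeq2 also called 0. Over all genes tested the share called was 5.19% for photoreceptors against progenitors, 2.88% for ganglion cells against progenitors and 11.1% for amacrine and horizontal cells against progenitors. It was 2.11% for photoreceptors against ganglion cells, 8.71% for photoreceptors against amacrine and horizontal cells and 0.824% for ganglion cells against amacrine and horizontal cells. A count of 0 of 33 is near the smaller of these shares.

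At an unadjusted p under 0.05 stood 19 of the 198 values. There were 0 in photoreceptors against progenitors (16.0% of all genes), 2 in ganglion cells against progenitors (13.6%) and 0 in amacrine and horizontal cells against progenitors (24.6%). There were 0 in photoreceptors against ganglion cells (10.7%), 7 in photoreceptors against amacrine and horizontal cells (22.9%) and 10 in ganglion cells against amacrine and horizontal cells (13.8%). All of the 7 and the 10 lay lower in the first-named population.

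The smallest adjusted p was that of mt-co2 in photoreceptors against amacrine and horizontal cells, with a log2 fold change of -1.07 (SE 0.38, 95% interval -1.87 to -0.27, adjusted p = 0.089, edgeR). mt-nd3 followed in the same comparison with -1.24 (SE 0.45, interval -2.17 to -0.31, adjusted p = 0.091, edgeR). In ganglion cells against amacrine and horizontal cells, mt-co2 stood at -1.20 (SE 0.39, adjusted p = 0.145, edgeR) and mt-nd3 at -1.34 (SE 0.45, adjusted p = 0.161, edgeR). Both mt-co2 values leaned on amacrine and horizontal replicate 1, without which they were -0.36 in photoreceptors and -0.48 in ganglion cells. mt-rnr1 stood at -1.30 and -1.63 in these comparisons (SE 0.61 in each, adjusted p = 0.202 and 0.201, edgeR). mt-rnr2 had 6 log2 fold changes between -0.35 and 0.27, each with an interval that held 0, and its direction in the comparisons nearest 0 turned when single libraries were left out.

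Failing the threshold does not show equal levels. Over the 13 protein-coding genes and 6 comparisons, 46 of the 78 intervals lay within a log2 fold change of -1 to 1, and the others reached as far as -2.27 and 1.40. The medians of the 13 log2 fold changes against progenitors were -0.27 (photoreceptors), -0.50 (ganglion cells) and 0.11 (amacrine and horizontal cells), beside 0.02, 0.03 and 0.00 over all genes. They were 0.13 for photoreceptors against ganglion cells, -0.44 for photoreceptors and -0.60 for ganglion cells against amacrine and horizontal cells, beside -0.01, 0.04 and 0.05. The signs of these medians held when scaling used DESeq2 size factors or nuclear genes alone.

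**Figure D3:**
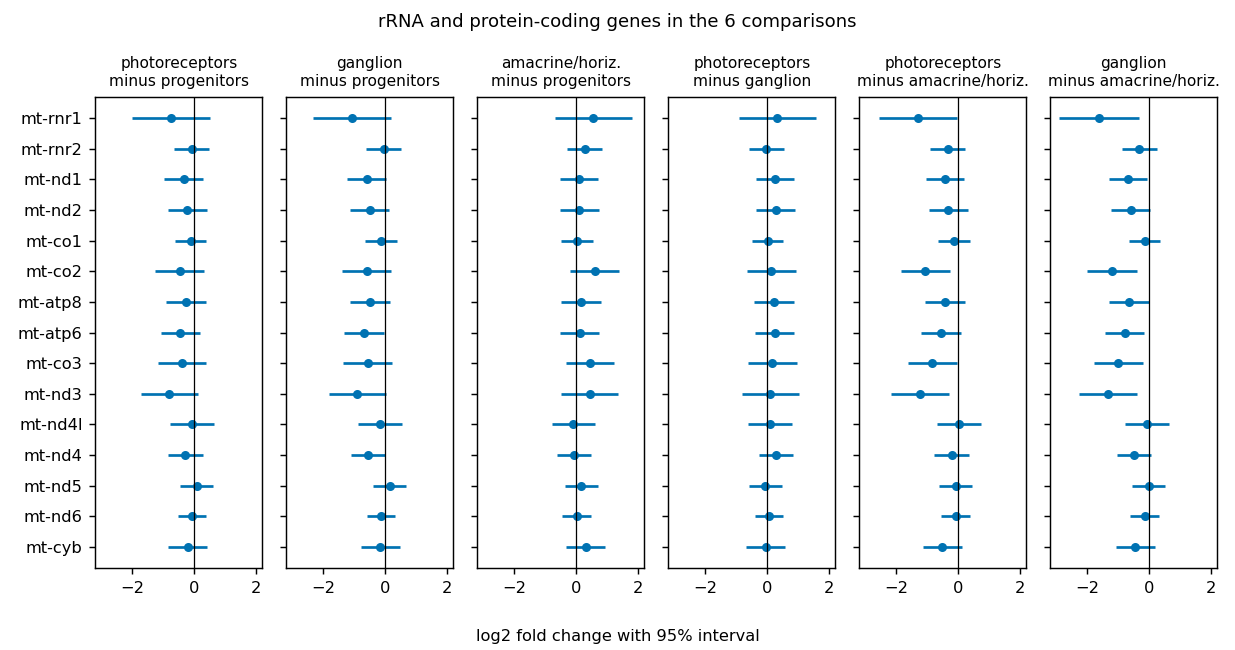
Log2 fold changes (points) with 95% intervals (lines) of the 2 rRNA and 13 protein-coding genes in the 6 pairwise comparisons of sorted populations, from the edgeR fit. The intervals of most genes hold 0, and the values of mt-co2, mt-nd3 and mt-rnr1 in photoreceptors and ganglion cells against amacrine and horizontal cells lie between -1.63 and -1.07.

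Separation of all 5 libraries from all 5 others was seen for few members. In ganglion cells against progenitors it held for mt-nd1, mt-co2, mt-atp6 and trnV, all lower in ganglion cells (4 of 33, beside 8.87% of all genes). mt-nd1, another complex I subunit, stood at -0.60 (SE 0.30) and mt-atp6 at -0.68 (SE 0.31) there, with adjusted p = 0.401 and 0.308 (edgeR), and mt-co2 at -0.60 (SE 0.38, adjusted p = 0.614). In ganglion cells against amacrine and horizontal cells it held for mt-atp8, mt-atp6 and trnI (3 of 33, beside 3.97%). mt-atp6 stood at -0.80 and mt-atp8 at -0.66 (SE 0.31 each, adjusted p = 0.210 and 0.354, edgeR). It held for trnD alone in photoreceptors against progenitors (11.0% of all genes) and trnL1 alone in amacrine and horizontal cells against progenitors (9.64%). It held for no member in photoreceptors against ganglion cells (8.84%) or against amacrine and horizontal cells (9.76%). When only ganglion cells and progenitors were fitted, mt-co2 passed at a log2 fold change of -0.60 and an adjusted p of 0.012 (edgeR). In that fit 691 of 11921 genes tested were called.

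Since no member passed, the largest change in each direction is given for each comparison, and most belong to tRNA genes with few counts. In photoreceptors against progenitors they were mt-nd5 at 0.08 (SE 0.26) and trnH, a histidine tRNA, at -1.44 (SE 0.99). In ganglion cells against progenitors they were mt-nd5 at 0.14 (SE 0.26) and trnI, an isoleucine tRNA, at -1.52 (SE 0.96). In amacrine and horizontal cells against progenitors they were trnK, a lysine tRNA, at 0.75 (SE 0.88) and trnL1, a leucine tRNA, at -1.18 (SE 0.83). In photoreceptors against ganglion cells they were trnV, a valine tRNA, at 0.44 (SE 0.56) and trnH at -0.49 (SE 0.97). Against amacrine and horizontal cells, trnL1 and trnS2, a serine tRNA, were the extremes, at 0.77 (SE 0.82) and -1.80 (SE 0.81) in photoreceptors and at 0.57 (SE 0.82) and -1.82 (SE 0.81) in ganglion cells. Without amacrine and horizontal replicate 1 the trnS2 values were -0.83 and -0.85. Adjusted p-values of these 12 values ran from 0.178 upward.

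A single photoreceptor library changed the calls. trnQ, a glutamine tRNA of the minus strand, measured 34.2, 0.633, 3.29, 3.18 and 3.20 CPM in photoreceptor replicates 1 to 5. In progenitors it measured 9.27, 14.0, 32.4, 24.4 and 21.6 CPM, and in amacrine and horizontal cells 65.1, 8.51, 27.0, 15.4 and 7.59. Photoreceptor replicate 1 lay above every progenitor library, and the other 4 photoreceptor libraries below all of them. With it, trnQ stood at -1.19 (SE 0.85, adjusted p = 0.608, edgeR) against progenitors, and without it at -2.98 (adjusted p = 0.0281). Against amacrine and horizontal cells, leaving out the same library brought 3 members past the threshold, namely trnQ at -3.21 (adjusted p = 0.0157), trnS2 at -3.07 (adjusted p = 0.0187) and mt-co2 at -1.34 (adjusted p = 0.0324). Leaving out amacrine and horizontal replicate 1 instead moved these values the other way, to -0.72 for trnQ, -0.83 for trnS2 and -0.36 for mt-co2, from -1.47, -1.80 and -1.07 with all libraries. In photoreceptor replicate 1 mt-co2 took 34.8% of the protein-coding counts, the highest share of the 5 photoreceptor libraries. With photoreceptor replicate 1 left out, 737 of 14528 genes tested were called against progenitors and 1127 against amacrine and horizontal cells. The 1 and 3 of 33 members called there lay near these shares of all genes.

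The makeup of the protein-coding counts set 3 libraries apart, which were chosen after their values were seen. In photoreceptor replicate 2 and ganglion cell replicate 1, mt-cyb took 25.1% and 22.2% of the protein-coding counts, against 10.8% to 17.9% in the other 18 libraries. mt-nd5 took 8.91% and 8.31% there, against 2.49% to 6.04%, and mt-nd6 1.83% and 1.55%, against 0.578% to 1.19%. These 3 genes follow each other at the far end of the chromosome as listed from mt-rnr1. In the same 2 libraries mt-atp6 took 4.90% and 3.54%, against 5.35% to 9.26% elsewhere, and mt-nd3 0.542% and 0.282%, against 0.572% to 2.25%. Photoreceptor replicate 2 held the lowest CPM of all 20 libraries for 10 of the 15 longer genes, while its nuclear genes for respiratory subunits summed to 19076 CPM, the highest of the 5 photoreceptor libraries (14633 to 17046 in the others). It had 16146 genes with a count, inside the range of 14070 to 17926 of the other photoreceptor libraries.

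Amacrine and horizontal replicate 1 differed in another way. mt-co2 made up 45.7% of its protein-coding counts, against 21.1% to 34.8% in the other 19 libraries, and mt-co1 12.1%, against 17.2% to 27.8%. It held the highest CPM of all libraries for 10 of the 15 longer genes, the fewest genes with a count (12531), the lowest scaling factor (0.680) and blood markers at 2954 CPM. Its nuclear respiratory subunits summed to 28400 CPM, also the highest of the 20 libraries. CPM is divided by the scaled total, so the low scaling factor raised every CPM value of this library, that sum included. As shares of unscaled counts, its rRNA genes took 8.27%, against 10.1% in photoreceptor replicate 1. Its protein-coding mitochondrial genes took 7.56%, against 4.76% in progenitor replicate 1, the next highest. Progenitor replicate 5, with more blood marker signal (6734 CPM), had mt-co2 at 26.5% of protein-coding counts. Whether blood cells had a part in the mt-co2 share of either library was not tested. With photoreceptor replicate 2, ganglion cell replicate 1 and amacrine and horizontal replicate 1 all left out, 0 members were called in the 6 comparisons (edgeR).

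**Figure D4:**
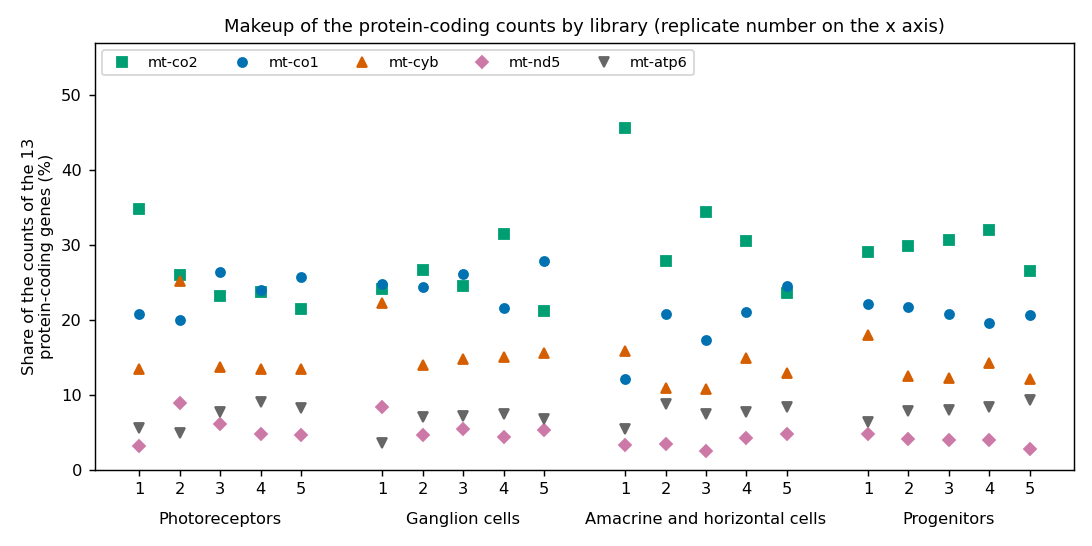
Share of the protein-coding mitochondrial counts taken by mt-co2, mt-co1, mt-cyb, mt-nd5 and mt-atp6 in each library (%, replicates 1 to 5 of each population). mt-cyb stands at 25.1% and 22.2% in photoreceptor replicate 2 and ganglion cell replicate 1, and mt-co2 at 45.7% in amacrine and horizontal replicate 1.

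Variation between libraries of a population was described by 1 measure per gene. The biological coefficient of variation from edgeR, the spread left after counting error, had a median of 0.36 over the 13 protein-coding genes, from 0.28 for mt-nd6 to 0.50 for mt-nd3. It was 0.33 for mt-rnr2 and 0.65 for mt-rnr1. Over all genes tested the median was 1.02, and over 1264 nuclear genes at least as abundant as the lowest mitochondrial mRNA it was 0.285.

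The 22 tRNA genes, which are 68 to 77 bases long, held 0.0698% to 0.176% of the mitochondrial counts. The 7 highest held 87.4% of all tRNA counts. They were trnS1 (serine) with a mean of 694 counts per library, trnC (cysteine) with 511, trnN (asparagine) with 466, trnS2 (serine) with 441, trnQ (glutamine) with 358, trnV (valine) with 326 and trnE (glutamate) with 146. The 8 genes of the minus strand held 71.3% of the tRNA counts, and 6 of the 8 genes with a mean over 100 counts lie there. All 10 tRNA genes with a mean under 30 counts lie on the plus strand, down to trnW (tryptophan) with 1.35 counts per library and 8 libraries at 0. Counting without strand cannot tell a minus-strand tRNA from a plus-strand transcript that runs across it, so these counts need not be reads of the tRNA itself.

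**Figure D5:**
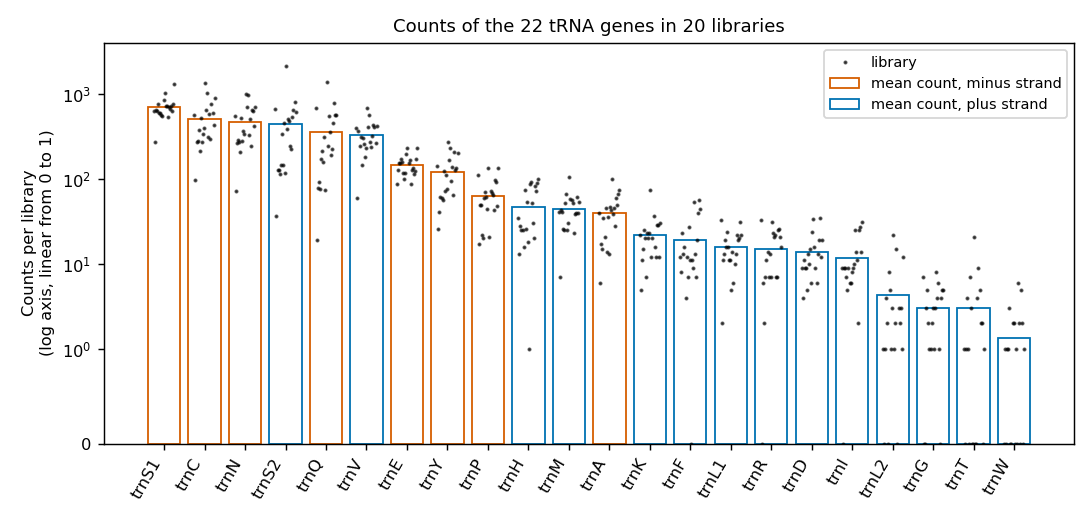
Counts of the 22 tRNA genes, with bars at the mean of 20 libraries (outlined by strand) and points for single libraries, on an axis that is logarithmic above 1 and linear from 0 to 1. trnS1 leads with a mean of 694 counts, and the 10 genes with means under 30 lie on the plus strand.

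The subunits that the nucleus supplies to the same complexes were compared in the same way. Of 92 listed nuclear genes, 86 were found and 83 tested. In photoreceptors against progenitors 0 rose and 1 fell, atp5mc3a (table symbol ATP5MC3), which encodes a ring subunit of ATP synthase, with a log2 fold change of -0.53 (SE 0.14, adjusted p = 0.033, edgeR). The count was 0 with DESeq2 size factors, without the low-count filter, and without photoreceptor replicate 1, 3, 4 or 5, ganglion cell replicate 3 or progenitor replicate 2, 3, 4 or 5. In amacrine and horizontal cells against progenitors 0 rose and 2 fell (edgeR). They were atp5mc3a with -0.63 (SE 0.14, adjusted p = 0.0072, edgeR) and uqcrc1, a core subunit of complex III, with -0.68 (SE 0.18, adjusted p = 0.021, edgeR). Over all genes 5.19% and 11.1% were called in these 2 comparisons, so both counts of the 83 lay below their shares. In the other 4 comparisons edgeR called 0, with 19, 4, 21 and 39 at an unadjusted p under 0.05 and 3, 0, 3 and 8 called by DESeq2, in the order ganglion cells against progenitors, photoreceptors against ganglion cells, and photoreceptors and ganglion cells against amacrine and horizontal cells. Over all genes the unadjusted shares were 13.6%, 10.7%, 22.9% and 13.8%. The counts of 19 and 39 of 83 lay above their shares, the count of 21 near its share and the count of 4 below. DESeq2 called 924, 717, 2085 and 696 of all 13838 genes there. Its 8 of 83 lay above that share and its other counts below. The medians of the 83 log2 fold changes in these 4 were -0.36, 0.19, -0.24 and -0.53. In the first 2 named comparisons they were -0.20 and 0.05. By library, the 86 genes found summed to 28400, 15845, 22313, 16552 and 16024 CPM in amacrine and horizontal replicates 1 to 5. The ganglion cell sums were 12132, 16353, 15008, 17021 and 16017.5 CPM, so these populations overlapped. Replicates 1 and 3 were the highest of the amacrine and horizontal libraries, and the low scaling factor of replicate 1 raised its sum.

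Per length, RNA of the mitochondrially encoded subunits stood above that of their nuclear partners in every population. The deposited length is the summed exon length, which for a nuclear gene can exceed the length of the RNA present. The ratios therefore need not be those of RNA molecules. For complex I, the median over its 7 mitochondrial genes was 5.31 to 6.42 times the median over its 38 nuclear genes (group means of 5 libraries). The ratio was 40.8 to 60.3 for complex III, 34.1 to 42.1 for complex IV and 10.8 to 13.2 for ATP synthase. Within groups these ratios spread widely, for complex III from 30.0 to 146 in amacrine and horizontal cells alone, and the groups overlapped for all 4 complexes.

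The nuclear genes that copy, transcribe and process the mitochondrial genome were also compared. Of 23 listed genes (among them polg, the DNA polymerase, polrmt, the RNA polymerase, and tfam, which packages the DNA), 20 were found and tested. edgeR called 0 in each of the 6 comparisons, with 2, 1, 4, 2, 1 and 0 at an unadjusted p under 0.05, and DESeq2 called 2, 1, 2, 1, 1 and 0. The order is photoreceptors, ganglion cells, and amacrine and horizontal cells against progenitors, then photoreceptors against ganglion cells, and photoreceptors and ganglion cells against amacrine and horizontal cells. Over all genes the unadjusted shares were 16.0%, 13.6%, 24.6%, 10.7%, 22.9% and 13.8% in this order. DESeq2 called 1376, 924, 2491, 717, 2085 and 696 of all 13838 genes. Each count of the 20 list genes lay near or below its share. The medians of the list were -0.22, -0.28, -0.25, 0.00, 0.12 and 0.10. In photoreceptor replicate 2 the list summed to 1090 CPM, against 879 to 962 in the other photoreceptor libraries. Of 6 regulators of mitochondrial biogenesis, 5 were tested. edgeR called only ppargc1b, a coactivator of nuclear genes for mitochondrial proteins. It was higher in photoreceptors than in amacrine and horizontal cells by a log2 fold change of 3.87 (SE 1.21, adjusted p = 0.049, edgeR). This was 1 of 5 tested, beside 8.71% of all genes called in that comparison, and 5 genes are too few to set against a share. That call was lost when the low-count filter was dropped, when only these groups were fitted, with the track covariate, without the 3 libraries, and when most single libraries were left out, each photoreceptor library among them.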

How the data were processed

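The authors deposited 1 count table of 20 libraries, not normalized. Per the submitters' processing notes and the file headers, reads had been aligned with GSNAP to GRCz11 and counted with featureCounts 1.6.3 over exons of Ensembl release 95, without strand, at a mapping quality of at least 1. By that program's defaults, reads with several hits or over several genes are not counted. The table's 92 spike-in sequences reached at most 6 counts in a library and were left out. All 20 count columns matched a labelled sample, and 0 were left unassigned.

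From the counts, CPM was computed on TMM-scaled totals, and CPM per kilobase with the deposited gene length. edgeR 4.0.16 in R 4.3.3 fitted all 20 libraries with 1 mean per population after filterByExpr, with 2-sided quasi-likelihood tests of the 6 pairwise comparisons, adjusted over 13838 genes at a threshold of 0.05. Sums over members were described without a test. Names came from a symbol table for 13 members, and from exact matches of position and length to RefSeq (assembly GRCz12tu) for the rRNA and tRNA genes. Alternatives were DESeq2 1.42.0 (Wald test, and its size factors in edgeR), scaling to nuclear genes, no filter, replicate number as a block, the range of the track number in the descriptions as a covariate, only the groups compared, and each library left out. The members and gene lists were chosen with earlier results of these data known. Named members were all protein-coding and rRNA genes, members past the threshold or else the largest change in each direction, and the most counted tRNA genes. Those with library-dependent calls or separated groups were named after their values were seen. No sequence is shown, since none was used here.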

Additional observations from a re-analysis of the deposited data

Results flagged for a closer look

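In all, 64 groups of 5 library values were examined (15 genes and the mitochondrial share in 4 populations). Of these, 7 held a library whose gap to its nearest neighbour exceeded 0.71 of the group's range. That limit flags about 1 in 20 groups of independent, normally distributed values. The groups here share libraries, so the count of 7 cannot be set against that rate. In ganglion cell replicate 1, mt-atp8 (177 CPM, against 387 to 425 in the other 4) and mt-atp6 (1032 CPM, against 2366 to 2566) stood far below. In amacrine and horizontal replicate 1, mt-co2 (50777 CPM, against 9724 to 18173), mt-atp8 (894 CPM, against 426 to 560) and mt-cyb (17540.5 CPM, against 3912 to 5687) stood far above. In progenitor replicate 5, mt-rnr1 (347 CPM, against 44.0 to 119) and mt-co3 (6227 CPM, against 3252 to 4112) stood far above.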

How the results depend on the processing

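Over 28 other settings, 3 of 168 counts of mitochondrial genes called were above 0: leaving out single libraries gave 0 to 1 for photoreceptors against progenitors and 0 to 3 against amacrine and horizontal cells, each high value without photoreceptor replicate 1, and fitting only ganglion cells and progenitors gave 1. Same-numbered libraries correlated at -0.056 to 0.153 in their deviations from group means. The mean correlations with differently numbered libraries ran from -0.027 to 0.0087. The same-numbered value was the higher in most but not all pairs, and single values spread more than means. Such weak correlations cannot tell whether the numbers mark shared pools. With the replicate block 0 mitochondrial genes were called in all 6 comparisons. Without a filter 37 members were tested, with 0 called. The replicate block moved the median of all genes to -0.15, 0.26 and 0.25 (log2) in the comparisons with amacrine and horizontal cells, the track covariate to 0.12 in ganglion cells against them, leaving out single libraries to at most 0.15, and DESeq2 size factors to 0.10 in photoreceptors against them. Mean mitochondrial shares became 3.70%, 3.53%, 4.69% and 4.48% for protein-coding genes only (photoreceptors, ganglion, amacrine and horizontal, progenitors), and 12.3 and 13.6 counts per 100 nuclear counts in ganglion cells and progenitors.

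Direction turned for 15 of 867 values of named members. mt-nd5 in photoreceptors against progenitors ran from -0.094 to 0.19 over left-out libraries, below 0 without photoreceptor replicate 3 and progenitor replicate 5. mt-rnr2 ran from -0.29 to 0.15 in that comparison, highest without photoreceptor replicate 2, and reached 0.16 without the 3 libraries that stood apart (photoreceptor replicate 2, and replicate 1 of ganglion and of amacrine and horizontal cells). In ganglion cells against progenitors it ran from -0.14 to 0.024 (above 0 without ganglion replicate 1 or progenitor replicate 1) and reached 0.036 without the 3 libraries. In photoreceptors against ganglion cells it reached 0.028 with DESeq2 size factors and its Wald test, ran from -0.24 to 0.21 over left-out libraries (above 0 without photoreceptor replicates 2 and 4 and ganglion replicates 4 and 5), and reached 0.12 without the 3 libraries. Against amacrine and horizontal cells in photoreceptors it reached 0.030 without the 3 libraries. The cause was not tested.

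Counts of list genes called follow, with the comparisons shortened to P (photoreceptors), G (ganglion cells), A (amacrine and horizontal cells) and R (progenitors). The total called over all genes changed with the setting too. In P-R it was 718 of 13838 in the main fit, 745 with the replicate block and 1376 with DESeq2. With only these groups it was 992 of 12044 in P-R and 600 of 10952 in A-R, where the main fit called 1540. The list counts are therefore given only to show their dependence on the setting. Nuclear respiratory subunits in P-R gave 0 with DESeq2 size factors, 0 without a filter and 3 with only these groups, in G-R 1 with the replicate block and 3 with DESeq2, in A-R 4 with nuclear scaling, 1 with only these groups and 4 with DESeq2, and in P-A 3 and G-A 8 with DESeq2. Leaving out single libraries gave 0 to 2, 0 to 1, 2 to 4, 0 to 2 and 0 to 1 in these 5. Mitochondrial DNA expression genes gave 1, 1, 2 and 1 in P-R (nuclear scaling, only these groups, DESeq2, without the 3 libraries), 1 and 1 in G-R (only these groups, DESeq2), and 1, 1, 2 and 3 in A-R (DESeq2 size factors, nuclear scaling, DESeq2, without the 3 libraries). They gave 1 in P-G with DESeq2, and 1 and 1 in P-A (DESeq2, without the 3 libraries), and 0 to 2, 0 to 1, 0 to 2 and 0 to 1 over left-out libraries in P-R, G-R, A-R and P-A. Biogenesis regulators gave 1 with DESeq2 in P-R, A-R and G-A, 0 in P-A without a filter, with the track covariate, with only these groups or without the 3 libraries, and 0 to 1 over left-out libraries in P-R and P-A. Glycolysis genes gave 4, 4 and 6 in P-R (replicate block, only these groups, DESeq2), 3, 2, 3 and 2 in G-R (the same, then without the 3 libraries), 2 in A-R with only these groups, 1, 1 and 4 in P-A (no filter, only these groups, DESeq2) and 2 in G-A with DESeq2. Left-out libraries gave 1 to 5, 1 to 3, 2 to 5 and 1 to 3 in P-R, G-R, A-R and P-A. Stress genes gave 0, 3 and 2 in P-R (no filter, only these groups, DESeq2), 1 and 5 in A-R (only these groups, DESeq2), and 1, 0, 0, 4 and 0 in G-A (no filter, replicate block, only these groups, DESeq2, without the 3 libraries). Left-out libraries gave 0 to 2, 1 to 2 and 0 to 2 in P-R, G-R and G-A. The alternative without the 3 libraries was chosen after seeing the data. Depth limits mainly the tRNA genes, 4 of which had too few counts to be tested.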

Other observations

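Glycolysis is the other main source of ATP. Of 25 listed glycolysis genes 24 were found and 18 tested. Against progenitors, edgeR called 1 up and 1 down in photoreceptors, 0 up and 1 down in ganglion cells, and 1 up and 3 down among amacrine and horizontal cells. It called 1 up and 1 down in photoreceptors against ganglion cells and 0 up and 2 down against amacrine and horizontal cells. It called 0 in ganglion cells against amacrine and horizontal cells (5 at an unadjusted p under 0.05, and 2 by DESeq2). That last comparison had 13.8% of all genes at this unadjusted p and 696 of 13838 called by DESeq2. Over all genes the shares called were 5.19%, 2.88%, 11.1%, 2.11%, 8.71% and 0.824% in this order of comparisons, so the 2 of 18 in photoreceptors against amacrine and horizontal cells lay near its share. The medians of the 18 log2 fold changes were -0.13, -0.58, -0.37, 0.10, 0.11 and -0.29 in the same order. Many listed genes have close paralogs, between which reads may be split.

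ldhba, a lactate dehydrogenase subunit gene, averaged 444 ± 55.99 CPM (SD, n = 5 here and for the next values) in progenitors and 220 ± 45.0 in ganglion cells. It averaged 199 ± 38.2 CPM in the amacrine and horizontal group and 100.1 ± 19.2 in photoreceptors. Its log2 fold changes against progenitors were -1.02 (ganglion cells), -1.16 (amacrine and horizontal cells) and -2.15 (photoreceptors) (SE 0.18 to 0.19, adjusted p at most 0.0023, edgeR). gapdhs, a glyceraldehyde-3-phosphate dehydrogenase gene, averaged 983 ± 295 CPM in photoreceptors and 394 ± 110 in progenitors, a log2 fold change of 1.32 (SE 0.33, adjusted p = 0.0195, edgeR). In amacrine and horizontal cells eno2, a neuronal enolase, averaged 3.33 ± 3.40 CPM and was at 0 in all 5 progenitor libraries.

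A list of genes that respond to dissociation and stress, 19 of which 18 were found and 15 tested, served as a sign of handling. gadd45ba, a growth arrest gene, averaged 172 ± 35.2 CPM in ganglion cells and 119 ± 44.7 in the amacrine and horizontal group. Progenitors averaged 53.0 ± 9.59 CPM and photoreceptors 25.3 ± 7.26. The calls were 0 up and 1 down, 1 up and 0 down, and 1 up and 1 down for photoreceptors, ganglion cells, and amacrine and horizontal cells against progenitors. They were 0 up and 1 down for photoreceptors against ganglion cells, and 2 up and 1 down and 2 up and 0 down for photoreceptors and ganglion cells against amacrine and horizontal cells, beside the same shares of all genes. The last of these counts fell to 0 with the replicate block, with only these groups, without the 3 libraries that stood apart, and without ganglion cell replicate 1 or amacrine and horizontal replicate 2 or 3. The summed list ranged from 642 to 1603 CPM over the libraries, with the highest value in ganglion cell replicate 1, where mt-atp6 and mt-atp8 were lowest of their group, and its part in those values was not tested.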
